A study of Mus musculus with 2 samples.

Results

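Ucp1, Ucp2 and Ucp3 encode the uncoupling proteins, carriers of the inner mitochondrial membrane, and were taken by symbol as 3 of the 32285 genes counted. They were read in nuclei of interscapular brown adipose tissue (BAT) by droplet-based single-nucleus RNA-seq, and RNA molecules were counted by their unique molecular identifiers (UMIs). The WT library came from Srsf1 flox/flox mice and the KO library from Adipoq-Cre; Srsf1 flox/flox mice, both 8 weeks old, so that both carried the floxed allele. The adiponectin promoter drives Cre in mature adipocytes, brown and white, and the other cells of the tissue were not targeted. There was 1 library per genotype, how many mice entered each was not given, and genotype and library cannot be told apart. No test or replicate error was therefore possible, and every interval below is a 95% interval for counting error only.

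UCP1 lets protons that the respiratory chain has pumped out return to the matrix without making ATP, so that fuel is turned into heat, and it defines brown and beige adipocytes. Noradrenaline acts on β-adrenergic receptors, raises cAMP, releases fatty acids that open UCP1, and increases Ucp1 transcription together with coactivators such as PGC-1α. UCP2 is best known in macrophages and other immune cells, and UCP3 in skeletal muscle and brown fat.

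The genes lie on the forward strand of the mouse genome (GRCm38) and are annotated as protein coding. Ucp1 spans positions 83290352 to 83298452 of chromosome 8. Ucp3 spans 100472990 to 100486432 and Ucp2 100493337 to 100502020 of chromosome 7, with 6905 bases between the end of Ucp3 and the start of Ucp2. The 250 bases before each start are printed below because this pair of neighbours and Ucp1 showed unlike levels in the same nuclei. They are RefSeq sequences of GRCm38.p6, forward strand, and are counted from the RefSeq starts, which differ by some bases from the GENCODE starts just given, so that the Ucp2 window runs past its GENCODE start. They lie at chr8:83290098-83290347 for Ucp1, chr7:100493108-100493357 for Ucp2 and chr7:100472741-100472990 for Ucp3. Capitals mark TATAAA and TATATA (forms of the TATA box), TGACG (the core of sites for cAMP-responsive factors), AGGTCA (the core of sites for nuclear receptors) and GGGCGG (a GC box), searched on both strands.
Ucp1: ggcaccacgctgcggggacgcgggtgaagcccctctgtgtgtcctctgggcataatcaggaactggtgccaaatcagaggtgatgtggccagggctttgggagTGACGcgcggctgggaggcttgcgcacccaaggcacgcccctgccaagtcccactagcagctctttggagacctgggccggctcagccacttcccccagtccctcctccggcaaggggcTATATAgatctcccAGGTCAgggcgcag
Ucp2: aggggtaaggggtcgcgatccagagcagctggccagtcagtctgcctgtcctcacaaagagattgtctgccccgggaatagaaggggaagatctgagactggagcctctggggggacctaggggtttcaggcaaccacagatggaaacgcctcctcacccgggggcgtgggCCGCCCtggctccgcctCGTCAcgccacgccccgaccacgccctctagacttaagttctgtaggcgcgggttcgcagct
Ucp3: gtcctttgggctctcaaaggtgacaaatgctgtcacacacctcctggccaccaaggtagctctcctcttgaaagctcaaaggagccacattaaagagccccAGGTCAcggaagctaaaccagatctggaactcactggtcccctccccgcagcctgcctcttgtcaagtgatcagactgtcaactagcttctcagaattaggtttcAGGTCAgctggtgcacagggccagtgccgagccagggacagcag
Ucp1 held TATATA from 28 to 23 bases before its start, AGGTCA from 14 to 9 and TGACG from 147 to 143. Ucp2 held TGACG from 62 to 58 and GGGCGG from 79 to 74, both on the reverse strand. Ucp3 held AGGTCA at 149 to 144 and again at 44 to 39. No matches overlapped, and TATAAA was in none of these windows. Of 32851 windows of this length, 5.25% held TATATA, 12.4% TATAAA, 17.8% TGACG, 14.0% AGGTCA and 32.7% GGGCGG. The share of G and C was 64.8% for Ucp1, 63.6% for Ucp2 and 54.8% for Ucp3, against a median of 52.4%. These letter matches are a description and do not show that a factor binds.

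Nuclei were put in classes by the summed UMIs of marker lists that hold no uncoupling protein gene, and a class is named "-like" after its markers. Of 12771 WT and 11378 KO nuclei kept, 7043 and 6775 got a single class, and nuclei that reached more than 1 class were set aside. Adipocyte nuclei numbered 3804 in WT and 1871 in KO, with medians of 7136.5 and 6341 UMIs. In unsupervised clusters they sat apart by library, WT mainly in clusters 0, 1 and 4 and KO in cluster 22. All 10 adipocyte markers and all 11 brown adipocyte markers were read in both, while the brown markers summed to 158 per 10000 UMIs in WT and 33.4 in KO. The limit for an adipocyte call was set in each library from its own shallow barcodes, at 112 per 10000 UMIs in WT and 65.6 in KO. Within 10% of it lay 1481 WT and 480 KO nuclei. Srsf1, the targeted gene, was at 186 counts per 1000000 UMIs (CPM) in WT and 57.5 CPM in KO adipocyte nuclei, which gives a log2 ratio (KO over WT, as throughout) of -1.69 (-1.79 to -1.59). It was also lower in KO macrophage-like (-0.68), endothelial-like (-0.68) and precursor-like nuclei (-0.59). The libraries shared 52 barcodes, and mitochondrially encoded genes took a median of 1.1% of UMIs in WT and 0.0491% in KO.

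In adipocyte nuclei the genes of this family took unlike directions. Ucp1 was 25.4-fold lower in KO. Ucp3 was almost level. Ucp2, read in few adipocyte nuclei of either library, was higher in KO with nuclei called by marker sums, also at stricter and looser limits. A difference was not detectable with nuclei taken from clusters, or with the 1295 WT and 576 KO nuclei that held no macrophage-marker UMI. Those nuclei held only 47 and 20 Ucp2 UMIs.

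Ucp1, the thermogenic carrier, was at 1771 CPM (1758 to 1785) in WT adipocyte nuclei, from 65415 UMIs, and at 69.8 CPM (65.7 to 74.0) in KO, from 1104 UMIs. The log2 ratio was -4.67 (-4.75 to -4.58), the 114th lowest of the 14980 genes with at least 50 UMIs over both libraries. A log2 ratio of -1 or less was found for 16.5% of these genes, and their median ratio was 0.12. At least 1 Ucp1 UMI was seen in 98.7% of WT nuclei (98.3% to 99.1%) and 20.4% of KO nuclei (18.6% to 22.3%). After every nucleus was thinned to 1000 UMIs, the shares were 78.3% and 6.09%.

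The median WT adipocyte nucleus held 13 Ucp1 UMIs, with quartiles of 7 and 21 and a highest value of 212. Of the KO nuclei, 1490 of 1871 held none, and the highest held 22. The nuclei of the libraries overlapped, but 5 or more UMIs were read in 84.9% of WT and 4.22% of KO nuclei. In KO, the top 19 nuclei held 20.9% of the Ucp1 UMIs, against 7.83% for the top 39 in WT, shares that depend on how many UMIs there are to share out. Only 3 of the KO UMIs lay in nuclei whose barcode both libraries used.

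**Figure D1:**
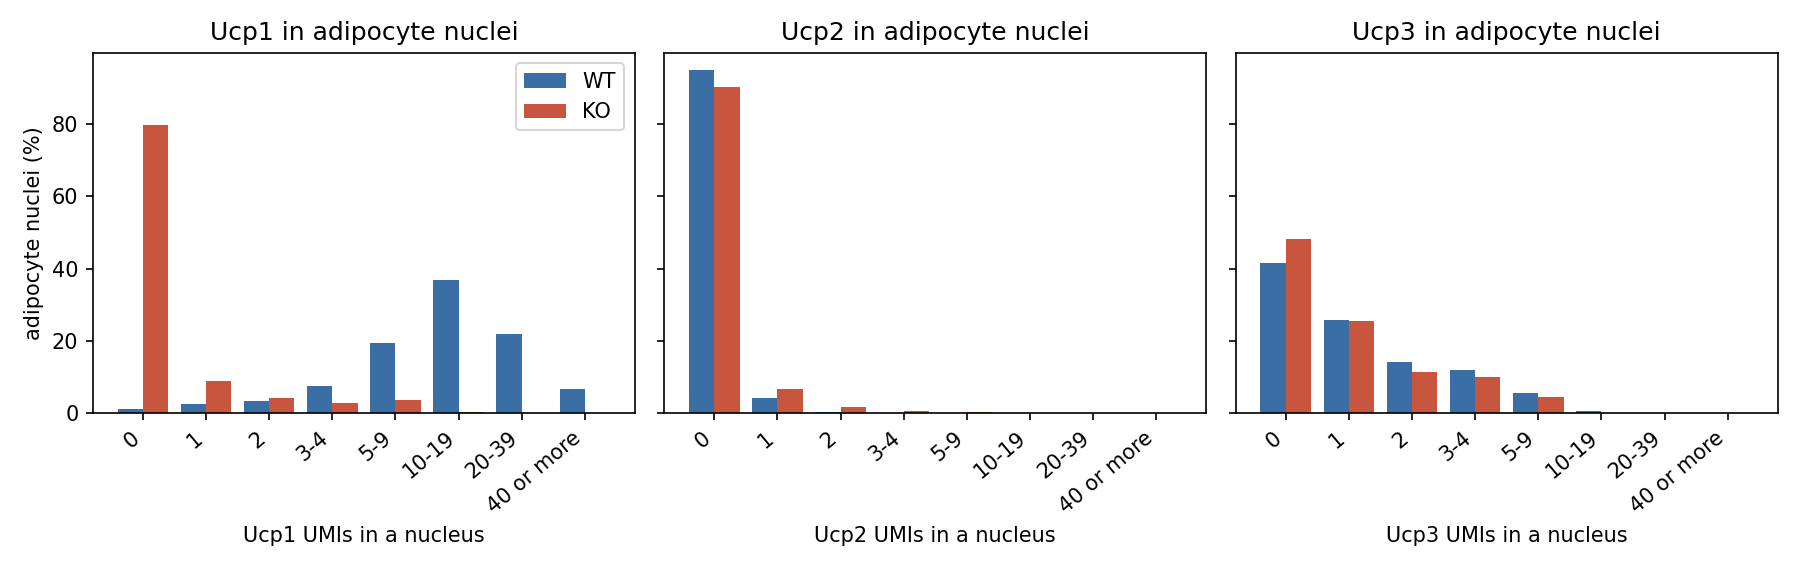
Share of adipocyte nuclei (y axis, %) by the number of UMIs of each gene in the nucleus (x axis), for WT (blue) and KO (red). For Ucp1, 79.6% of KO nuclei stand at 0 while the tallest WT bar is 10 to 19 UMIs (36.8%). For Ucp3 the bars of both libraries follow each other, with 41.6% of WT and 48.2% of KO nuclei at 0.

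Ucp3, the relative known from muscle and brown fat, had 5331 UMIs in WT and 2076 in KO adipocyte nuclei. Its level was 144 CPM (140 to 148) in WT and 131 CPM (126 to 137) in KO, a log2 ratio of -0.14 (-0.21 to -0.06). It was seen in 58.4% of WT and 51.8% of KO nuclei, and after thinning in 12.9% and 12%. The median nucleus held 1 UMI in both. The KO level was 1.1-fold lower than WT in the same nuclei in which Ucp1 UMIs were scarce. With the level of the shallow barcodes (described with free RNA further on) subtracted, it was 70.6 CPM in WT and 103 CPM in KO. That ratio, 0.54, was opposite in sign but has no interval. The shallow level of Ucp3 rests on 38 WT UMIs (52.2 to 101 CPM) and 10 KO UMIs (13.6 to 52.1 CPM). With adipocyte nuclei taken from clusters the ratio was -0.06 (-0.13 to 0.01).

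Ucp2, the form of immune cells, had 239 UMIs in WT and 282 in KO adipocyte nuclei. That is 6.47 CPM (5.68 to 7.35) and 17.8 CPM (15.8 to 20.03), a log2 ratio of 1.46 (1.21 to 1.72). In these nuclei 21.7% of genes had a ratio of 1 or more. Ucp2 was seen in 5.15% of WT and 9.78% of KO nuclei, and after thinning in 0.473% and 1.497%. The thinned shares rest on 18 and 28 nuclei.

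Macrophage markers moved with this difference, and their part in it was not tested. All 10 of them were read in both libraries, and their sum was 2.44 per 10000 UMIs in WT and 4.46 in KO adipocyte nuclei, which is 3.08% and 5.84% of the sum in macrophage-like nuclei. Ucp2 in adipocyte nuclei stood at 5.28% of its macrophage-like level in WT and 13.5% in KO. In KO, Ucp2 was at 28.1 CPM in adipocyte nuclei with 2 or more macrophage-marker UMIs, 6.71 CPM with 1 and 5.63 CPM (3.44 to 8.69) with none. In WT the values were 8.23, 3.58 and 5.40 CPM (3.97 to 7.19). Among nuclei with none, which rest on 47 and 20 Ucp2 UMIs, the log2 ratio was 0.06 (-0.77 to 0.84). With adipocyte nuclei taken from clusters it was 0.09 (-0.27 to 0.43), at 6.21 CPM in WT and 6.60 CPM in KO. That choice left out cluster 13, which got no name and held 1137 KO nuclei with a median of 13175 UMIs. By marker sums 18.5% of these were adipocyte and 13.5% macrophage-like nuclei, and their Ucp2 level was 57.9 CPM. The higher Ucp2 level of KO adipocyte nuclei was therefore not seen under either choice.

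**Figure D2:**
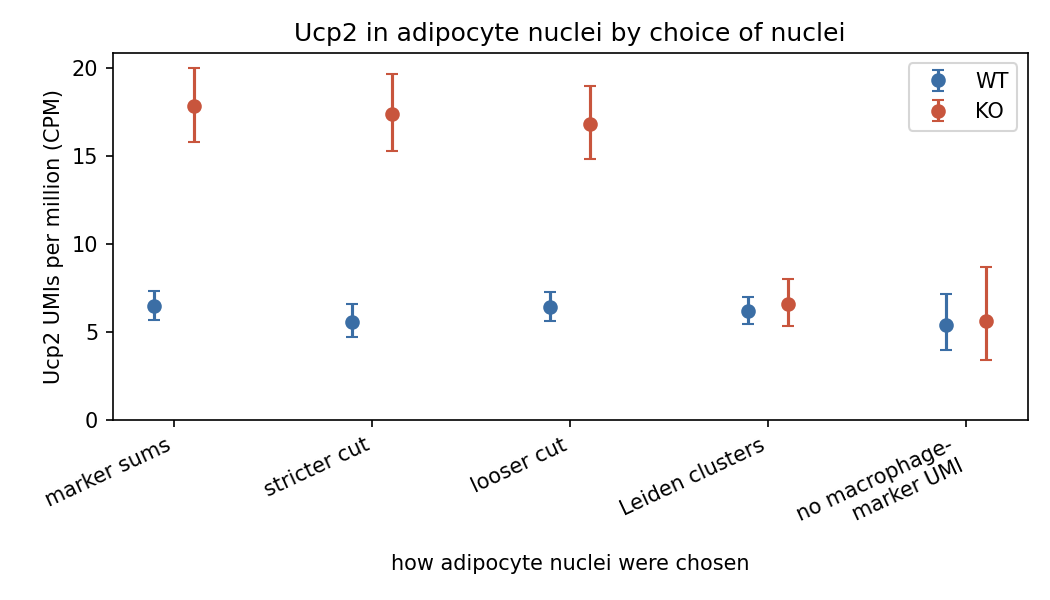
Ucp2 level in adipocyte nuclei (y axis, CPM, bars are 95% Poisson intervals) under 5 ways of choosing the nuclei (x axis), WT in blue and KO in red. KO lies between 16.8 and 17.8 CPM under the 3 limits on marker sums and at 6.60 and 5.63 CPM, beside WT, for clusters and for nuclei without a macrophage-marker UMI.

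Adipocyte nuclei were split by brown and white adipocyte markers into brown-like (3160 WT, 159 KO), white-like (132 WT, 607 KO), both (215 WT, 29 KO) and neither, called other adipocyte (297 WT, 1076 KO). In brown-like nuclei Ucp1 was at 1852 CPM in WT and 278 CPM in KO, a log2 ratio of -2.74 (-2.92 to -2.56). The KO nuclei here were chosen for brown markers, which were themselves lower in KO, and their median held 0 Ucp1 UMIs. In nuclei with both kinds of markers the levels were 1530 and 189 CPM. In white-like nuclei they were 579 and 39.4 CPM (-3.88, -4.08 to -3.67), and in other adipocyte nuclei 1628 and 68.5 CPM (-4.57, -4.70 to -4.44). Brown-like nuclei thus had the highest Ucp1 level in both libraries and white-like the lowest of the 4. Near the limits were 316 WT and 86 KO nuclei for the brown call and 129 and 87 for the white call.

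Ucp3 ran differently through the same classes. In brown-like nuclei it was at 146 CPM (142 to 151) in WT and 207 CPM (179 to 239) in KO, a log2 ratio of 0.50 (0.29 to 0.71). In white-like nuclei it was at 102 CPM (84.8 to 122) and 116 CPM (108 to 124), a ratio of 0.18 (-0.09 to 0.47). In other adipocyte nuclei it was at 142 and 134 CPM (-0.09, -0.28 to 0.11). Brown-like nuclei stood above white-like in both libraries. Ucp2 held only 8 and 10 UMIs in KO brown-like and WT white-like nuclei, and its intervals there were wide.

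**Figure D3:**
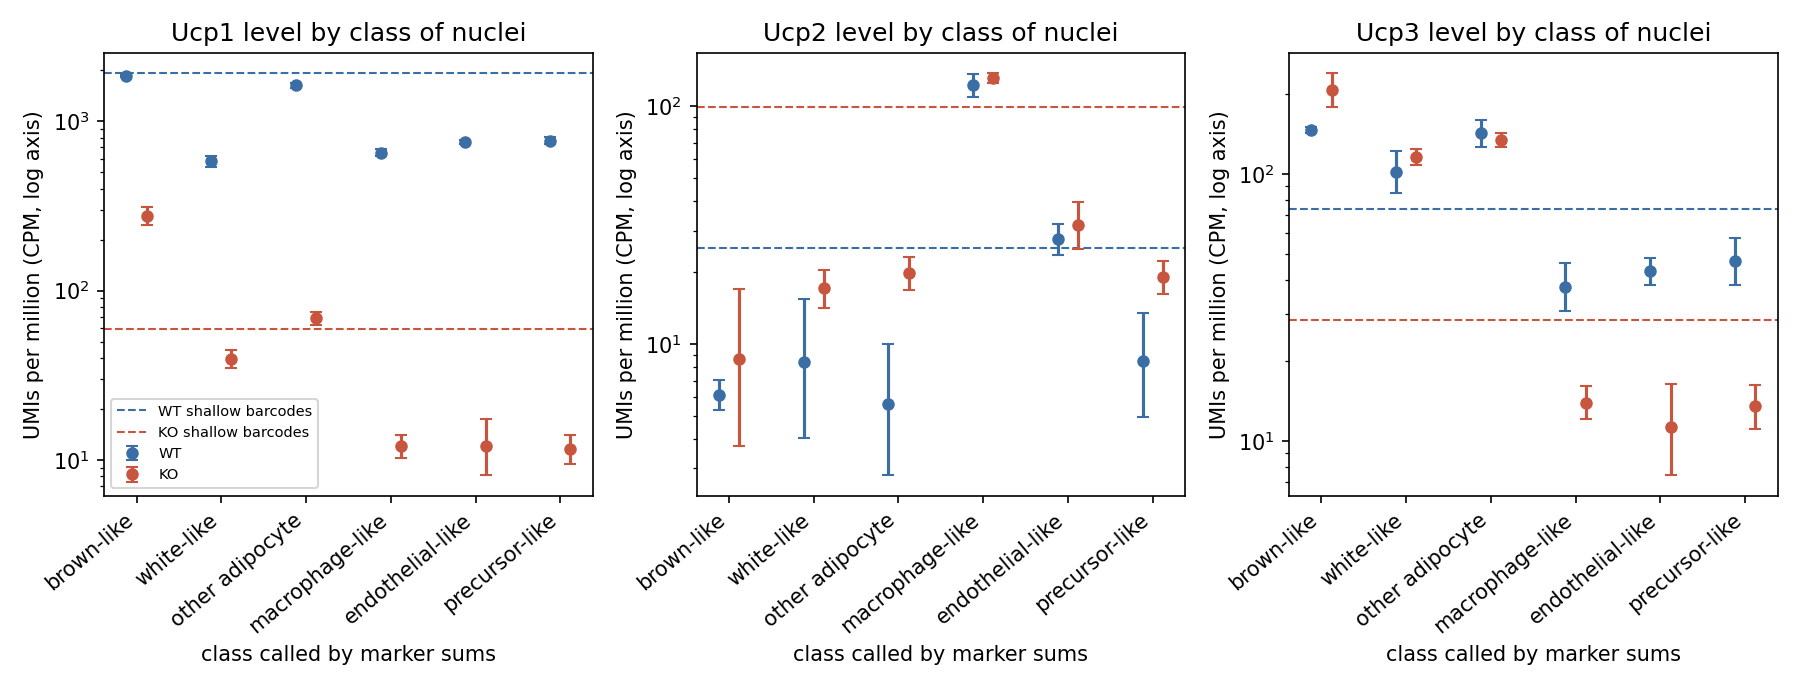
Level of each gene (y axis, CPM, log axis) in 6 classes of nuclei (x axis), with 95% Poisson intervals, WT in blue and KO in red, and the level in the shallow barcodes of each library as dashed lines. Ucp1 is lower in KO in all 6 classes, Ucp2 is highest in macrophage-like nuclei of both libraries, and Ucp3 in the 3 adipocyte classes lies above its dashed line.

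Ranking adipocyte nuclei by the share of brown markers and cutting them into 4 bins of equal size gave the same contrast on a finer scale. In WT, Ucp1 went from 1517 CPM in the lowest bin through 1717 and 1831 to 1993 CPM in the highest, over 951 nuclei each. In KO it went from 8.79 CPM (6.05 to 12.3) through 38.2 and 70.2 to 183 CPM (169 to 198), over 467 or 468 nuclei each. The KO gradient was the steeper, and its top bin still lay under the lowest WT bin. Ucp3 went from 138 to 150 CPM in WT and from 106 to 183 CPM in KO, where the intervals of the lowest bin (96.1 to 117) and the highest (169 to 199) were apart. Ucp2 went from 7.73 to 4.34 CPM in WT and from 17.3 to 14.1 CPM in KO, with overlapping intervals in KO.

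**Figure D4:**
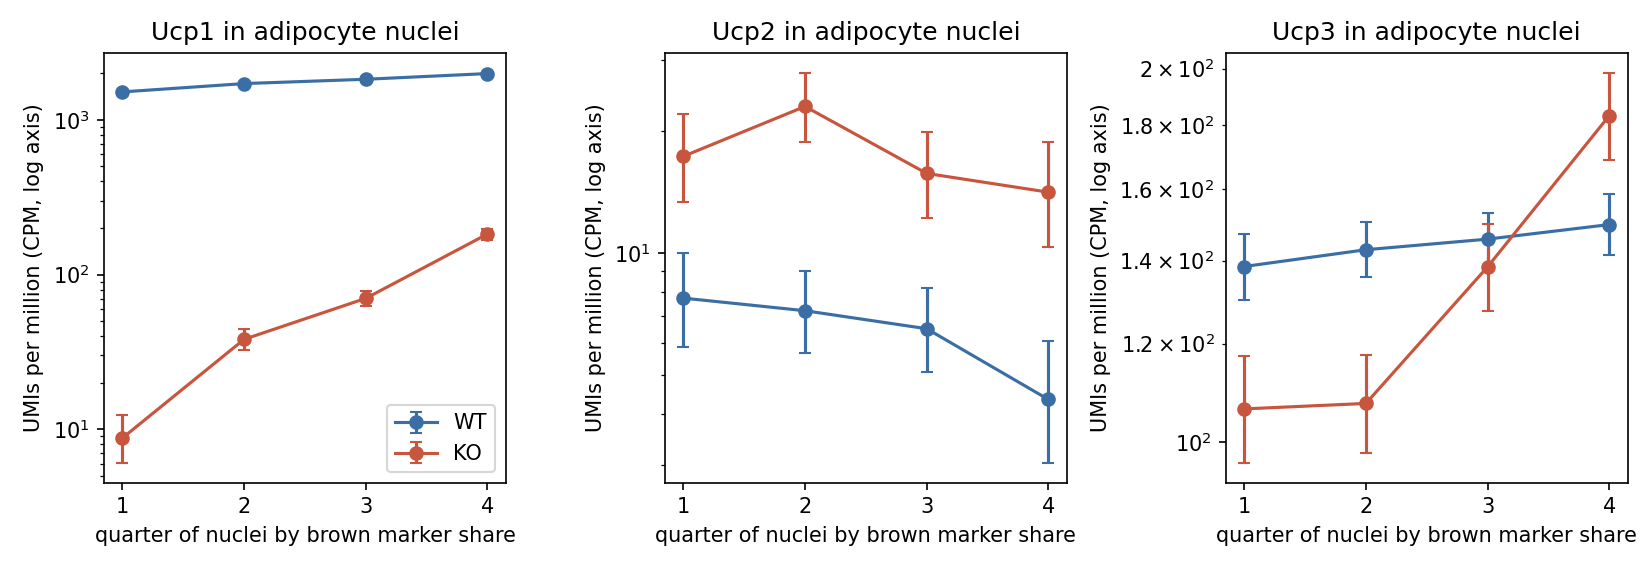
Level of each gene in adipocyte nuclei (y axis, CPM, log axis with its own range per gene) by bin of nuclei ordered by brown marker share (x axis, 4 bins of equal size, 1 lowest), with 95% Poisson intervals. The KO line of Ucp1 climbs from 8.79 to 183 CPM below the WT line, and the KO line of Ucp3 crosses the WT line, from 106 to 183 CPM. Bins were cut within each library, so bins of the same number differ in brown share.

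Outside adipocytes, Ucp1 UMIs were read in every class of the WT library. Macrophage-like nuclei held 651 CPM in WT (411 nuclei) and 12.1 CPM in KO (2392 nuclei), endothelial-like 751 CPM (2019) and 12.1 CPM (758), and precursor-like 769 CPM (294) and 11.6 CPM (1346). The log2 ratios were -5.75, -5.96 and -6.05. A ratio of -1 or less was found for 12.5% of genes in macrophage-like, 15.1% in endothelial-like and 12.3% in precursor-like nuclei. White-like nuclei of WT, at 579 CPM (536 to 623), did not exceed these classes, which should lack the gene. At least 1 Ucp1 UMI was seen in 81.5% of WT macrophage-like, 79.9% of endothelial-like and 84.7% of precursor-like nuclei, at medians of 4934, 2430 and 4490 UMIs. After thinning these were 41.4%, 47.8% and 39.8%, below the 78.3% of adipocyte nuclei. In KO the shares were 3.804%, 2.90% and 3.57% before thinning and 0.836%, 1.06% and 0.520% after it.

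In the smaller WT classes Ucp1 was at 1363 CPM in dendritic-like (17 nuclei), 1183 CPM in Schwann-like (117), 953 CPM in mural-like (344), 868 CPM in muscle-like (11) and 658 CPM in lymphocyte-like nuclei (26). In KO these classes held between 5.51 and 24.4 CPM, from 1 to 21 UMIs each. Every WT class thus stood above every KO class, and of the WT classes only adipocyte nuclei other than white-like lay above all the rest. Ucp3 in the same WT classes ran from 24.4 CPM in lymphocyte-like to 163 CPM (119 to 218) in dendritic-like nuclei, the latter from 45 UMIs, and its interval overlapped that of brown-like nuclei. Those 17 dendritic-like nuclei held adipocyte markers at 95.9 and brown markers at 108 per 10000 UMIs, beside 5.07 for dendritic markers. Schwann-like nuclei held them at 89.5 and 114, beside 17.4 for Schwann markers, and mural-like at 71.7 and 88.3, beside 38.9 for mural markers. WT lymphocyte-like and muscle-like nuclei held more of their own markers than of either list. The part of adipocyte RNA in the Ucp1 and Ucp3 levels of these classes was not tested. In KO, Ucp3 ran from 24.9 CPM in mural-like to 92.3 CPM in muscle-like nuclei.

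The lowest 5% of barcodes by UMIs served as a view of free RNA, although they are deposited barcodes and not empty droplets. They were 653 WT barcodes of at most 833 UMIs and 576 KO barcodes of at most 753 UMIs. Ucp1 in them was at 1924 CPM (1806 to 2048) in WT and 59.5 CPM (36.8 to 90.9) in KO, a log2 ratio of -5.02 (-5.71 to -4.40). The WT brown-like level was 96.3% of this, so the level of Ucp1 in WT brown-like nuclei did not exceed that of the shallow barcodes. The brown markers, which chose these nuclei, were at 221% of their shallow level and Ucp3, which did not, at 198%. In KO brown-like nuclei Ucp1 was at 467% and Ucp3 at 732% of the shallow level. That KO level rests on 21 Ucp1 and 10 Ucp3 UMIs, and percentages of it carry their counting error. Over all adipocyte nuclei Ucp1 was at 92.1% in WT and 117% in KO, and Ucp3 at 196% and 463%. In white-like nuclei Ucp1 was at 30.1% in WT and 66.3% in KO.

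Relative to brown markers, shallow barcodes held more Ucp1 than nuclei did. Per 100 brown-marker UMIs there were 11.2 Ucp1 UMIs in WT adipocyte nuclei, 14.7 in macrophage-like, 18.0 in endothelial-like and 25.4 in shallow barcodes. In KO the values were 2.09, 2.07, 2.21 and 4.94. KO precursor-like nuclei had 0.414, and most of their brown-marker UMIs came from Ebf2 (20250 UMIs, 2372 CPM), a gene of adipocyte precursors too. Mitochondrially encoded genes took 0.753% of UMIs in WT adipocyte, 0.745% in macrophage-like and 1.248% in endothelial-like nuclei and 2.90% in shallow barcodes. In KO they took 0.0714% in adipocyte nuclei and 2.34% in shallow barcodes.

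Ucp3 outside adipocytes was lower in KO by a log2 ratio of -1.44 (-1.80 to -1.07) in macrophage-like, -1.94 (-2.57 to -1.37) in endothelial-like and -1.81 (-2.22 to -1.40) in precursor-like nuclei. Its levels were 37.8 and 13.9 CPM, 43.2 and 11.3 CPM, and 47.3 and 13.5 CPM. These levels were 51.3%, 58.6% and 64.2% of the shallow level in WT and 49.1%, 39.8% and 47.6% in KO, where the shallow level itself was 73.7 and 28.3 CPM. Brown-marker sums in the 3 classes were between 41.8 and 65.5 per 10000 UMIs in WT and between 5.49 and 28.0 in KO. All 11 brown markers were read there, except Dio2 in KO endothelial-like nuclei. The sum of 28.0 was that of KO precursor-like nuclei and came mostly from Ebf2. The part of free RNA in these ratios was not tested. Ucp3 was at 90.7 CPM (36.5 to 187) in 11 WT and 92.3 CPM (49.2 to 158) in 15 KO muscle-like nuclei, from 7 and 13 UMIs.

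In WT macrophage-like nuclei, ranked by the share of macrophage markers into 4 bins, Ucp1 went from 912 CPM in the lowest to 309 CPM in the highest bin and Ucp3 from 63.9 to 7.35 CPM. In KO they went from 21.6 to 5.03 and from 25.5 to 5.70 CPM. Both genes were thus lower in the bin richest in macrophage markers than in the poorest, in both libraries.

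Ucp2 had the opposite course. In macrophage-like nuclei it was at 123 CPM (109 to 137) in WT and 132 CPM (126 to 138) in KO, a log2 ratio of 0.10 (-0.07 to 0.28). It was seen in 46.0% (41.1% to 50.9%) and 47.0% (45.0% to 49.0%) of nuclei, at medians of 4934 and 4415 UMIs. From the lowest to the highest bin of macrophage-marker share it went from 73.9 CPM (56.3 to 95.3) to 182 CPM (148 to 221) in WT. In KO it went from 98.6 CPM (89.8 to 108) to 167 CPM (153 to 182). A difference between the libraries was thus not detectable at this depth in nuclei given only the macrophage-like class by marker sums. With nuclei that reached several classes put in the highest one, the log2 ratio was 0.19 (0.03 to 0.35). Nuclei richer in macrophage markers were richer in Ucp2 in both libraries.

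Among all classes of WT nuclei, Ucp2 was highest in macrophage-like nuclei, followed by lymphocyte-like (48.8 CPM, from 4 UMIs), endothelial-like (27.6 CPM) and muscle-like nuclei (25.9 CPM, from 2 UMIs). Dendritic-like (25.4 CPM), mural-like (17.4 CPM), Schwann-like (12.8 CPM), precursor-like (8.46 CPM) and adipocyte nuclei (6.47 CPM) came next. In KO the order was macrophage-like, dendritic-like (97.7 CPM), lymphocyte-like (55.1 CPM), Schwann-like (49.6 CPM), endothelial-like (31.7 CPM), muscle-like (21.3 CPM), mural-like (20.4 CPM), precursor-like (19.1 CPM) and adipocyte nuclei (17.8 CPM). In WT the intervals of lymphocyte-like and macrophage-like nuclei overlapped, as did those of each later pair of neighbours. In KO the macrophage-like interval lay above the dendritic-like one (78.0 to 121), and the last 4 classes overlapped.

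Endothelial-like nuclei held Ucp2 at 27.6 CPM (23.8 to 31.8) in WT and 31.7 CPM (24.98 to 39.7) in KO, a log2 ratio of 0.20 (-0.20 to 0.59). Among the clusters, most of these nuclei were in cluster 3 in WT and in cluster 16 in KO, with Ucp2 at 30.4 and 29.4 CPM. Precursor-like nuclei, the stem and progenitor cells of fat, held 8.46 CPM (4.93 to 13.6) from 17 UMIs in WT and 19.1 CPM (16.3 to 22.3) in KO, a ratio of 1.17 (0.45 to 1.99). Only 7.65% of genes in that class had a ratio of 1 or more. Beside it, the 10 macrophage markers summed to 1.84 per 10000 UMIs in WT and 5.60 in KO precursor-like nuclei, and in the precursor cluster with most nuclei of both libraries Ucp2 was at 9.58 CPM in WT and 6.61 CPM in KO. The other precursor-like cluster was nearly all KO and stood at 76.6 CPM, but its median was 805 UMIs, under the 1500 needed for a class, and the KO shallow barcodes stood at 99.1 CPM.

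The shallow barcodes also differed in Ucp2, with 13 UMIs in WT (25.2 CPM, 13.4 to 43.1) and 35 in KO (99.1 CPM, 69.0 to 138). The macrophage-like level was 486% of this in WT and 133% in KO. With the level of the shallow barcodes subtracted, the macrophage-like level was 97.4 CPM in WT and 32.5 CPM in KO. The log2 ratio of these was -1.58, opposite in sign but without an interval. Before subtraction the KO macrophage-like level, 132 CPM, lay inside the interval of the KO shallow level. Macrophage markers in shallow barcodes stood at 11.2% of their macrophage-like share in WT and 33.0% in KO, and their part in this ratio was not tested. KO clusters named macrophage-like or dendritic-like by their markers ranged from 101 to 158 CPM. The cluster with the most macrophage-like nuclei of both libraries, number 10, stood at 98.0 CPM in WT and 158 CPM in KO, with Ucp1 at 925 and 7.76 CPM. Taking all macrophage-like clusters gave 96.4 and 131 CPM, a log2 ratio of 0.45 (0.30 to 0.60).

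**Figure D5:**
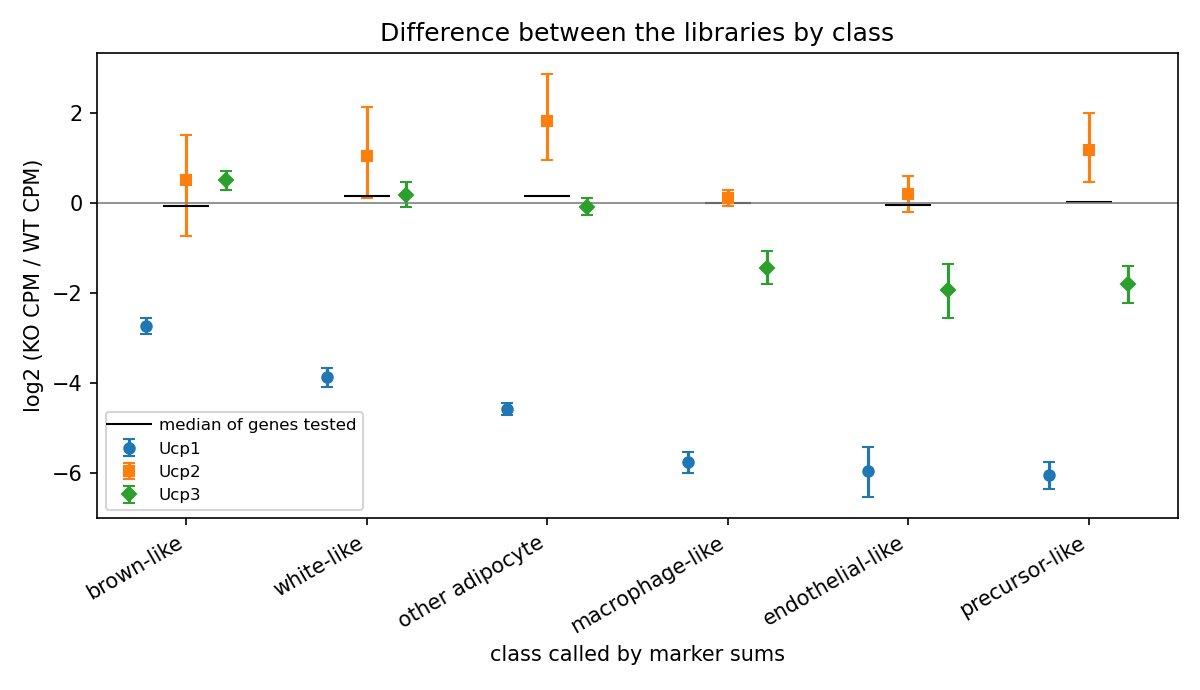
Log2 ratio of KO to WT level (y axis) for each gene in 6 classes (x axis), with 95% exact binomial intervals for counting error, and the median ratio of genes with at least 50 UMIs in the class (black dash). Ucp1 lies between -6.05 and -2.74, Ucp3 goes from 0.50 in brown-like to -1.94 in endothelial-like nuclei, and Ucp2 lies between 0.10 and 1.82.

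The relation to depth differed between genes and classes. In WT brown-like nuclei (n = 3160) the Spearman correlation with UMIs per nucleus was 0.66 for the Ucp1 count and -0.06 for its CPM, and the points share the library and its free RNA. Over 4 bins of nuclei of increasing depth the Ucp1 level was 2024, 1959, 1989 and 1731 CPM, so that only the deepest bin was lower. For Ucp3 the bins were at 145, 156, 152 and 141 CPM. For Ucp2 in KO macrophage-like nuclei they were at 140, 134, 165 and 115 CPM.

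In KO adipocyte nuclei the Ucp2 level did go with depth. Its bins were at 10.5, 8.97, 10.99 and 24.7 CPM, and the deepest held 205 of the 282 UMIs. In WT adipocyte nuclei they were at 6.50, 2.93, 6.95 and 7.40 CPM. The Spearman correlation with depth of the Ucp2 CPM was 0.28 in KO (n = 1871) and 0.16 in WT (n = 3804), and of its thinned count 0.04 in both. Ucp1 in KO white-like nuclei was at 10.6, 36.7, 39.9 and 45.5 CPM. The higher KO level of Ucp2 thus lay mostly in the deepest nuclei, and the part of depth in it was not tested. In thinned counts of adipocyte nuclei, the correlations between pairs of the genes were between -0.03 and 0.05 in both libraries and are no finding in counts this sparse.

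The genes most like each member across 7 classes in 2 libraries, 14 points in all, were chosen by Pearson correlation of log2(CPM + 1) among 15156 genes. For Ucp1 they were Cidea (r = 0.997), a lipid droplet protein and 1 of the brown markers, Lncbate10 and Erbb4 (both 0.99), Cox7b, a subunit of cytochrome c oxidase, and Nudt12os (both 0.99). For Ucp2 they were Naip2, an inflammasome sensor, Inpp5d, the phosphatase SHIP1 of blood cells (both 0.99), Mctp1, Stab1, a scavenger receptor (both 0.98) and Hdac9 (0.98). For Ucp3 they were Mlxipl, the glucose-responsive factor ChREBP, Optn, Aifm2, Mpc1, a subunit of the mitochondrial pyruvate carrier, and Cluh, a binder of mRNAs for mitochondrial proteins (all 0.99). Between members, r was 0.66 for Ucp1 and Ucp3, -0.44 for Ucp1 and Ucp2 and -0.64 for Ucp2 and Ucp3. Points of 1 library share its free RNA, and these values are descriptive.

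Genes known to act on Ucp1 differed in the same adipocyte nuclei. Of 26 regulators, 16 had a log2 ratio of -1 or less and 5 of 1 or more, with a median of -1.36 against 0.12 over all genes. Over all genes tested the shares were 16.5% lower and 21.7% higher. The lowest were Dio2, which activates thyroid hormone, at -9.26 (21412 UMIs in WT and 15 in KO), the transcription factor Irf4 at -3.55 and the coactivator Ppargc1a at -3.33. The highest were Nrip1, a corepressor of Ucp1, at 1.61, Zbtb7b at 1.42 and Rxra at 1.32.

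Of 20 genes that supply fatty acids, the fuel and activators of UCP1, 6 were at -1 or less and 1 at 1 or more, with a median of -0.56, beside 16.5% and 21.7% of all genes tested. Cidea had -4.03 (953 and 58.3 CPM), Elovl3, an elongase of brown fat, -2.87 and the glycerol kinase Gk -2.01. Cpt1a, the liver form of the carnitine transferase, had 2.68 (8.31 and 53.2 CPM), the uptake protein Cd36 0.65 and the lipase Mgll 0.58. Of the fatty acid genes 7, and of the regulators 8, were also markers used to call classes.

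The relatives of the uncoupling proteins among the mitochondrial carriers numbered 13, of which 12 had enough UMIs. There, 4 were at -1 or less and 2 at 1 or more, with a median of 0.61, beside the same 16.5% and 21.7% of all genes. The lowest were the adenine nucleotide translocator Slc25a5 (-2.12), Slc25a35 (-1.14) and the oxoglutarate carrier Slc25a11 (-1.13). The highest were the dicarboxylate carrier Slc25a10 at 2.12 (4.28 and 18.6 CPM), Slc25a27 at 1.37 and Slc25a14 at 0.88, the last 2 also known as UCP4 and UCP5.

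The genes within 50 kb of the members had the following ratios in adipocyte nuclei. Beside Ucp1, Elmod2 had a log2 ratio of -0.61 (-0.72 to -0.51) and Tbc1d9 of -0.06 (-0.28 to 0.15). Near Ucp2 and Ucp3, C2cd3 had -0.13, Mrpl48 -0.04 and Coa4 -1.27 (-2.04 to -0.58), from 113 and 20 UMIs. Gm10603, annotated antisense and overlapping Ucp3, had 819 UMIs in WT and 951 in KO (22.2 and 60.1 CPM), a ratio of 1.44 (1.30 to 1.58). Dnajb13, on the reverse strand and overlapping Ucp2, had 18 and 33 UMIs (2.10, 1.23 to 3.01). Whether strand was used in counting was not given in the sources used here, so reads of Ucp3 and Gm10603, and of Ucp2 and Dnajb13, may not be told apart. Gm39059 had 2 UMIs in each library.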

How the data were processed

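Nuclei of interscapular BAT were profiled with 10x 3′ chemistry, 1 library per genotype. UMI counts per gene and barcode were deposited by the authors as filtered matrices. The submitters' processing notes name Cell Ranger 5.0.0 and Seurat 3.1.1, while the study's methods give another version of Cell Ranger. Whether introns or strand entered the counting was not given in the sources used here. Kept barcodes had at least 200 genes, at most 10% mitochondrial UMIs, and totals of UMIs and genes within 3 scaled median absolute deviations of the median on a log scale. The WT library held 93102814 UMIs over 12846 barcodes (median 3439.5) and the KO library 80090208 over 11495 (median 4363).

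A nucleus with at least 1500 UMIs got a class when a marker list had at least 5 UMIs and 1.5 times its mean share over both libraries. For the adipocyte list the limit was 1.25 times the share in the shallow barcodes of the same library, so it differed between libraries. No doublet caller was run, and nuclei with more than 1 class were set aside. UMIs were summed per class and divided by all UMIs of the class (CPM), with exact Poisson intervals. Shares have Clopper-Pearson intervals and log2 ratios exact conditional binomial intervals, all at 95% and for counting error only. With 1 library per genotype no test was made. A difference was counted as such from a log2 ratio of 1 in genes with at least 50 UMIs. Thinning drew 1000 UMIs per nucleus. Named genes were the members, the targeted gene, the 5 genes most like each member, the 3 lowest and 3 highest of each of 3 gene lists, and neighbours within 50 kb. The members and lists were chosen with earlier results of these data known. Alternatives were other limits and filters, Leiden clusters (scanpy 1.11.5, 2000 variable genes, 30 components, resolution 0.5), other scalings and subtraction of the shallow level. Scripts used Python 3.11.15 and scipy 1.17.1 and were tested on simulated data. Levels of single macrophage markers are not reported here.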

Additional observations from a re-analysis of the deposited data

Results flagged for a closer look

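Ucp3 took opposite directions in different classes of the same libraries. On the log2 scale, KO differed from WT by 0.50 in brown-like nuclei, and -1.44 in macrophage-like, -1.94 in endothelial-like and -1.81 in precursor-like nuclei. With 1 library per genotype, the difference between the classes was not tested. Brown-marker sums moved with the lower values, at 41.8 to 65.5 per 10000 UMIs in the 3 classes of WT and 5.49 to 28.0 in KO, and their part in the result was not tested. The sum of 28.0, in KO precursor-like nuclei, came mostly from Ebf2, which in that class was at 1849 CPM in WT and 2372 CPM in KO. In shallow barcodes the Ucp3 ratio was -1.38 (-2.55 to -0.35). The 159 KO brown-like nuclei were chosen for brown markers, with which Ucp3 rose in KO, and the part of this choice was not tested. Over all adipocyte nuclei the ratio was -0.14, and in other adipocyte nuclei, the largest KO group, -0.09 (-0.28 to 0.11).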

How the results depend on the processing

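Over 59 alternatives, 45 values stayed inside the counting interval of the reported ratio and 14 left it. For Ucp1 in adipocyte nuclei those were -4.92 with Leiden clusters, -4.79 after centring on the median gene and -4.56 after thinning, and every alternative lay between -4.92 and -4.56. For Ucp2 in adipocyte nuclei they were 0.0873 with Leiden clusters, 1.12 as a mean over nuclei and 0.0586 without nuclei holding a macrophage-marker UMI. For Ucp3 in adipocyte nuclei they were -0.0599 with Leiden clusters, -0.0488 as a mean over nuclei, 0.54 with the shallow level subtracted, -0.26 after centring and -0.0166 after thinning. Ucp2 in macrophage-like nuclei gave 0.45 with Leiden clusters and -1.58 with the shallow level subtracted, and in endothelial-like nuclei -0.24 after thinning. The ratios with the shallow level subtracted have no interval, and that level rests on few UMIs. The cause was not tested. Having no minimum of UMIs for a class, and leaving out nuclei with a macrophage-marker UMI, were chosen after seeing the data. The shallow level could not be subtracted for Ucp1 and Ucp2 in adipocyte nuclei or Ucp2 in endothelial-like nuclei, whose levels did not exceed it in a library. Shallow barcodes without an adipocyte-marker UMI gave no ratio, since there were 1 in WT, with 0 Ucp1 UMIs, and 42 in KO, with 1. No paired analysis was possible because each genotype had 1 library. Several values rest on few UMIs, such as Ucp2 in muscle-like nuclei (2 in WT and 3 in KO) and KO brown-like nuclei (8).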
